A study of Arabidopsis thaliana with 16 samples.

Results

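The genes described here belong to the Arabidopsis families that build, acetylate and loosen the primary cell wall, taken by their symbols. A probe set was taken when it was paired with 1 gene and that gene's symbol began with TBL, XTH, EXPA, EXPB, EXLA, EXLB, CSL, CESA, FLA, GAUT or PME and continued with a digit or a subfamily letter. This gave 59 of the 13356 genes that the annotation used here pairs with a probe set, each with a single probe set. They comprised 22 TBL genes, 9 XTH genes, 18 expansin and expansin-like genes (10 EXPA, 4 EXPB, 3 EXLA and 1 EXLB), 8 CSL genes, 1 GAUT gene and 1 PME gene. The RefSeq gene table lists 184 such symbols, so most XTH, EXPA, CSL, GAUT and PME genes, and the whole CESA (cellulose synthase) and FLA (fasciclin-like arabinogalactan protein) families, were not analysed here.

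Transcripts were measured on the ATH1 GeneChip, a short oligonucleotide array, in *vtc2* and wild-type (WT) tissues, both in the Col-0 background, at 4 stages of somatic embryogenesis. Per the methods, *vtc2* plants carried the homozygous T-DNA insertion allele *vtc2-5*, which lowers ascorbate (vitamin C), and the arrays therefore represent a single allele. The *vtc2* groups and the WT groups were each made up of bent-cotyledon zygotic embryos (ZE in the plots), explants after 7 d (D7I) and after 14 d (D14I) on a medium that held the auxin analogue 2,4-D, and mature somatic embryos (SE in the plots) that formed after transfer to medium without 2,4-D. Each of the 8 groups had 2 arrays, labelled as biological replicates, and an age of the plants is not given in the sources used here.

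All values are signals on a linear scale, and every array had a trimmed mean of 500, so that a difference is relative to the whole array. The median signal of an array was between 148 and 199, replicate arrays correlated at 0.922 to 0.962, and the least alike were the 2 arrays of WT mature somatic embryos. Differences were taken as log2 of the signal and tested with limma across all 22746 probe sets. A gene is called higher or lower below where its Benjamini-Hochberg adjusted p was under 0.05 and the difference was at least 2-fold, and only then is it said to have risen or fallen. The median probe set moved by 0.19 (*vtc2*) and 0.14 (WT) on the log2 scale between zygotic embryos and D7I, by -0.16 between D14I and mature somatic embryos in *vtc2*, and by -0.15 between *vtc2* and WT mature somatic embryos, and the values of the genes should be read against these shifts. The annotation used here pairs no probe set with *VTC2* itself, so the mutation was not checked. A signal below 30 was taken as weak, and 7 genes (*TBL20*, *TBL21*, *TBL42*, *TBL43*, *XTH21*, *XTH26* and *EXPA21*) had no group mean that reached it, whereas 52 did.

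In the growing primary wall, cellulose fibrils lie in a matrix of xyloglucan and other hemicelluloses and of pectin. Expansins loosen this network at acid pH without cutting its chains, and XTH enzymes (xyloglucan endotransglucosylase/hydrolases) cut and rejoin xyloglucan. TBL (TRICHOME BIREFRINGENCE-LIKE) proteins belong to a family of wall polysaccharide O-acetyltransferases, with xylan, mannan, xyloglucan and pectin among the polymers they act on. CSLA enzymes make mannan, CSLC enzymes the glucan backbone of xyloglucan, CSLD enzymes cellulose-like glucan, GAUT proteins pectic homogalacturonan, and PME enzymes remove its methyl esters. Auxin is known to bring about wall loosening in growing tissues.

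Of the 59 genes, 30 were called in at least 1 step between successive stages, 26 of them in *vtc2* and 28 in WT, against 49.7% of all probe sets in any step, 42.1% in *vtc2* and 36.7% in WT, so that the overall count lay near that of all probe sets. The passage onto 2,4-D medium moved the most. The stage with the highest mean was the same in *vtc2* and WT for 33 of the 59. The share of all probe sets for which this held was not counted, so the number is not read as a trait of these genes. Genes not called in any step included *GAUT15* and *CSLD2*, though with 2 arrays per group this does not show steady expression. *GAUT15*, a homogalacturonan synthesis gene by family, gave signals of 106 to 202 on the 8 *vtc2* arrays and 120 to 158 on the 8 WT arrays. *CSLD2*, known for root hair growth, gave 497 to 1138 in *vtc2* and 427 to 1066 in WT.

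**Figure D1:**
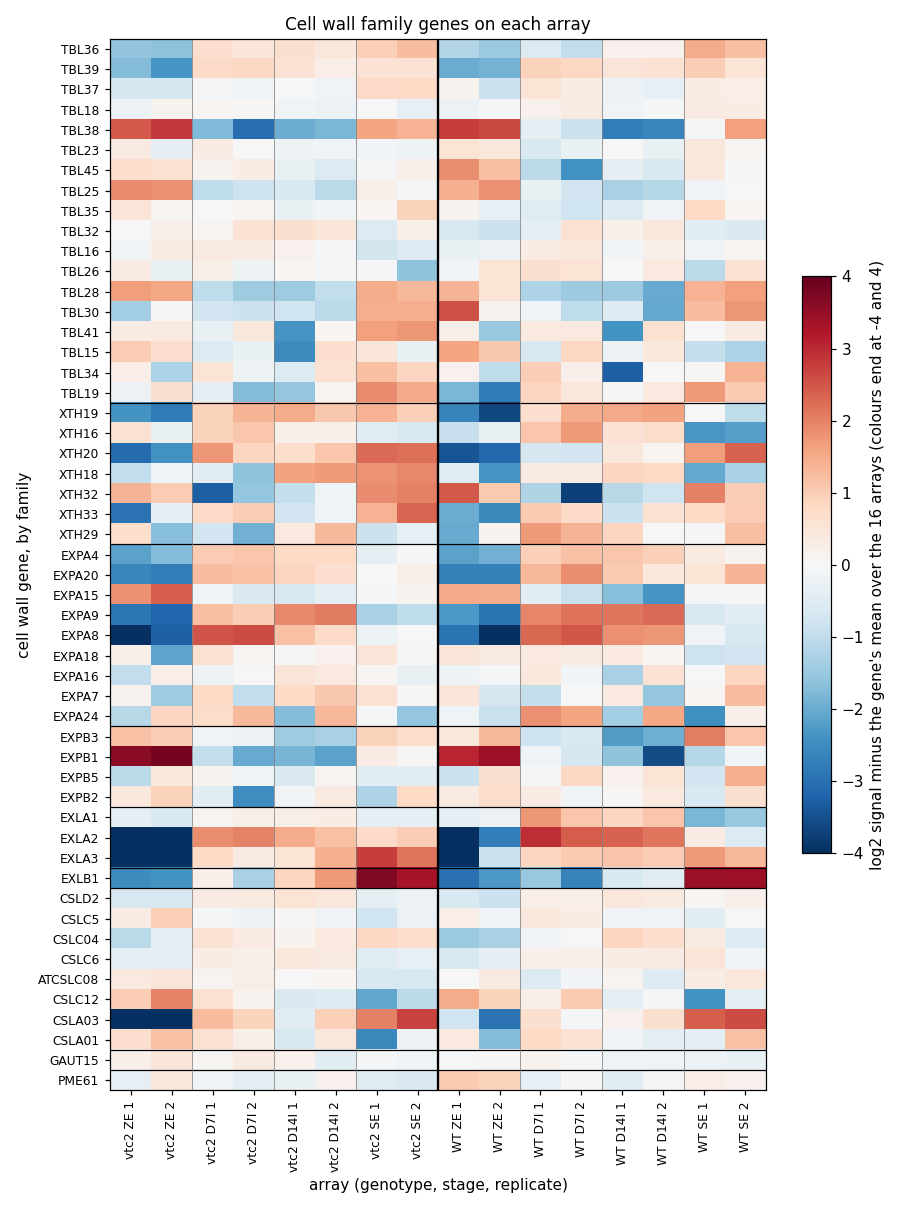
Signal of the 52 cell wall genes with a group mean of at least 30 on each of the 16 arrays, as log2 signal minus the gene's own mean over the arrays (red, higher; blue, lower), with families set apart by black lines and *vtc2* arrays left of WT arrays. ZE, zygotic embryos; SE, mature somatic embryos. *EXPA8*, *EXPA9* and *EXLA2* were low in zygotic embryos and high at D7I, and *TBL38* and *EXPB1* ran the other way.

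The first question was how these genes changed when zygotic embryos were cultured for 7 d on 2,4-D medium. At D7I 15 genes were higher and 8 lower than in zygotic embryos in *vtc2*, against 18.0% of all probe sets higher and 12.1% lower. In WT 16 were higher and 9 lower, against 15.7% and 12.0% of all probe sets. The median log2 difference of the 59 was 0.26 in *vtc2* and 0.54 in WT. With median centring of the arrays, quantile normalization or 30 added to every signal, it came to 0.01, 0.05 and 0.08 in *vtc2*. In WT it came to 0.41, 0.43 and 0.28, so the *vtc2* value depended on the scaling. Both genotypes shared 12 of the rises (12 of 15 in *vtc2* and 12 of 16 in WT) and 7 of the falls (7 of 8 and 7 of 9), and no gene was called in opposite directions. Over all probe sets 1923 falls were shared, of 2760 in *vtc2* and 2725 in WT. Shared rises were not counted over all probe sets, so the overlap is not read as a trait of these genes. The expansins gave 7 rises and 4 falls of 18 in *vtc2*, and 7 rises and 3 falls in WT.

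Among the alpha-expansins, *EXPA4*, *EXPA8*, *EXPA9* and *EXPA20* rose in both genotypes. *EXPA4* gave 6780 and 7151 at D7I and 753 and 998 in zygotic embryos of *vtc2*, and 6448 and 7439 at D7I and 751 and 874 in zygotic embryos of WT. The 4 D7I arrays thus stood far above the 4 arrays of zygotic embryos, with log2 differences of 3.01 ± 0.19 (SE of the fit, adjusted p = 2.54e-06) in *vtc2* and 3.10 ± 0.19 (adjusted p = 2.43e-06) in WT. *EXPA8* gave 1653 and 1779 at D7I, against 16.3 and 29.8 in zygotic embryos, in *vtc2*. In WT it gave 1414 and 1625 at D7I, against 38.1 and 16.5. Its log2 differences were 6.28 ± 0.39 in *vtc2* and 5.92 ± 0.39 in WT, from a weak signal in zygotic embryos. *EXPA9* rose by 4.14 ± 0.23 and *EXPA20* by 3.90 ± 0.30 in *vtc2*, and by 4.66 ± 0.23 and 4.31 ± 0.30 in WT.

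The expansin-like genes code for proteins related to expansins whose wall-loosening activity is not established. *EXLA2* had the largest rise of any member without an offset, with 394 and 426 at D7I and 2.86 and 3.31 in zygotic embryos of *vtc2*, and with 824 and 581 at D7I and 3.60 and 15.7 in zygotic embryos of WT. The log2 difference of 7.06 ± 0.56 in *vtc2* and 6.52 ± 0.56 in WT rests on zygotic signals far below 30, and it came to 3.73 and 4.2 when 30 was added to every signal before the log, still called in both. With 30 added *EXPA8* rose by more, 5.05 in *vtc2* and 4.78 in WT, so the rank of *EXLA2* depends on its weak zygotic signals. *EXLA3* rose in both genotypes as well, by 5.48 ± 0.88 in *vtc2* and 3.59 ± 0.88 in WT (1.62 and 1.48 with 30 added). *EXLA1* rose in WT, with 5934 and 3812 at D7I and 1360 and 1511 in zygotic embryos (log2 difference 1.73 ± 0.22, adjusted p = 0.000213), whereas *vtc2* gave 1907 and 2101 at D7I and 1347 and 1158 in zygotic embryos, under the 2-fold limit (0.68 ± 0.22, adjusted p = 0.0335). *EXLB1* was called in *vtc2* at 1.90 ± 0.52 (adjusted p = 0.0153), a call that was lost without *vtc2* ZE replicate 1, *vtc2* ZE replicate 2 or *vtc2* D7I replicate 1 (adjusted p up to 0.126).

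*EXPA15* and some beta-expansins moved the other way. Of the beta-expansins 3 of 4 were called lower in *vtc2* and 2 of 4 in WT, against 12.1% and 12.0% of all probe sets. *EXPB1* fell to 81.0 and 39.0 at D7I, against 1919 and 2216 in zygotic embryos, in *vtc2*, and to 142 and 98.2 at D7I, against 1296 and 1676, in WT. This made it the largest called fall among the expansins, with -5.20 ± 0.60 (adjusted p = 9.7e-05) in *vtc2* and -3.64 ± 0.60 (adjusted p = 0.00104) in WT. *EXPA15* gave 604 and 451 at D7I and 2380 and 3547 in zygotic embryos of *vtc2*, and 488 and 367 at D7I and 1921 and 1902 in zygotic embryos of WT. Its log2 differences were -2.48 ± 0.28 and -2.17 ± 0.28. *EXPB3* fell by 1.28 ± 0.34 in *vtc2*, where the call was lost without *vtc2* ZE replicate 1 or *vtc2* D7I replicate 2 (adjusted p up to 0.067), and by 1.60 ± 0.34 in WT. *EXPB2* was called lower in *vtc2* at -2.12 ± 0.76 with signals of 4.42 to 46.7, and this call was lost with 11 of the 16 arrays left out in turn (adjusted p up to 0.342).

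**Figure D2:**
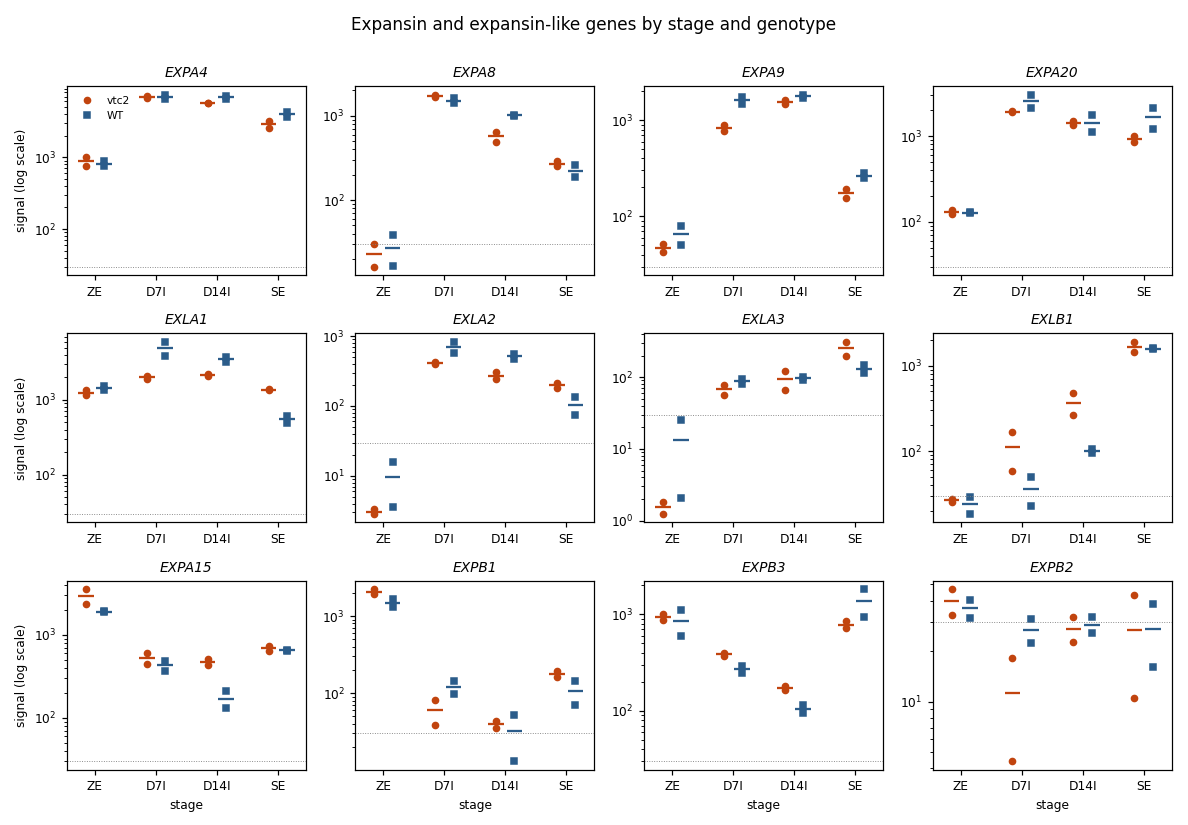
Signals of 12 expansin and expansin-like genes on each array (points) with the mean of the 2 arrays of a group (bars), by stage, for *vtc2* (orange circles) and WT (blue squares) on a log scale that differs between panels; the dotted line is a signal of 30. ZE, zygotic embryos; SE, mature somatic embryos. *EXPA4*, *EXPA8*, *EXPA9* and *EXPA20* were highest at D7I or D14I in both genotypes, and *EXPB1* in zygotic embryos.

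Among the XTH genes 3 of 9 rose in *vtc2* and 5 of 9 in WT, against 18.0% and 15.7% of all probe sets. *XTH19* gave 1137 and 1539 at D7I, against 115 and 85.8 in zygotic embryos, in *vtc2*. In WT it gave 963 and 1666 at D7I, against 93.3 and 48.1. Its log2 differences were 3.74 ± 0.43 (adjusted p = 9.13e-05) in *vtc2* and 4.24 ± 0.43 (adjusted p = 4.83e-05) in WT. *XTH20* gave 642 and 339 at D7I and 22.3 and 35.2 in zygotic embryos of *vtc2*, and 115 and 111 at D7I and 17 and 21.4 in zygotic embryos of WT. It rose by 4.06 ± 0.36 in *vtc2* and by 2.57 ± 0.36 in WT. *XTH33*, which codes for a membrane-anchored member of the family, was called higher in both genotypes from weak zygotic signals (2.54 ± 0.75 in *vtc2* and 3.18 ± 0.75 in WT), and the calls were lost without *vtc2* ZE replicate 1, *vtc2* D7I replicate 1 or *vtc2* D7I replicate 2 (adjusted p up to 0.159) and without WT ZE replicate 2 (adjusted p = 0.0516). *XTH16* rose in WT by 2.01 ± 0.31, and *XTH18* was called higher in WT at 1.74 ± 0.58 but not with 9 of the 16 arrays left out in turn (adjusted p up to 0.292). *XTH32* was the XTH gene called lower, at -3.61 ± 0.84 in *vtc2* (lost without *vtc2* D7I replicate 1, adjusted p = 0.0583) and -4.22 ± 0.84 in WT, with signals of 3.51 to 19.9 at D7I against 94.4 to 256 in zygotic embryos.

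Of the 22 TBL genes 3 rose and 3 fell in *vtc2*, against 18.0% and 12.1% of all probe sets. In WT 2 rose and 4 fell, against 15.7% and 12.0%. *TBL38*, which codes for a protein reported to act on the acetyl groups of homogalacturonan in seed coat mucilage cells, fell to 97.4 and 40.3 at D7I, against 1812 and 2332 in zygotic embryos, in *vtc2*, and to 259 and 182 at D7I, against 2244 and 2043, in WT. The log2 differences were -5.04 ± 0.52 (adjusted p = 5.05e-05) and -3.30 ± 0.52 (adjusted p = 0.000813). *TBL25*, a mannan O-acetyltransferase gene, fell by 2.79 ± 0.24 in *vtc2* and 2.14 ± 0.24 in WT, and *TBL28*, a xylan O-acetyltransferase gene, by 2.83 ± 0.31 and 2.30 ± 0.31. *TBL45* fell in WT, to 135 and 53.3 at D7I against 1048 and 657 in zygotic embryos (-3.29 ± 0.39, adjusted p = 0.00014), whereas in *vtc2* it gave 317 and 353 at D7I and 468 and 441 in zygotic embryos and was not called. *TBL39* rose in both genotypes, by 2.84 ± 0.22 in *vtc2* and 2.83 ± 0.22 in WT. *TBL21* in *vtc2* (3.62 ± 0.72) and *TBL19* in WT (2.99 ± 0.62) had the largest called rises, but their D7I signals were 14.6 and 24.1 and 30.8 and 23.1, and neither was called with 30 added to every signal (0.64 and 0.76).

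*CSLC04*, of the xyloglucan backbone subfamily, and *CSLA03*, of the mannan synthase subfamily, were the CSL genes called higher, 2 of 8 in each genotype. Over all probe sets 18.0% were called higher in *vtc2* and 15.7% in WT. *CSLC04* gave 703 and 585 at D7I and 219 and 362 in zygotic embryos of *vtc2*, and 424 and 460 at D7I and 168 and 189 in zygotic embryos of WT. Its log2 difference was 1.19 ± 0.30 in *vtc2*, lost without *vtc2* ZE replicate 1 or *vtc2* D7I replicate 1 (adjusted p up to 0.0910), and 1.31 ± 0.30 in WT. *CSLA03* gave 46.7 and 36.3 at D7I and 0.537 and 0.699 in zygotic embryos of *vtc2*, and 30.4 and 18.7 at D7I and 11.3 and 2.51 in zygotic embryos of WT, with every zygotic signal below the weak limit of 30. Its log2 difference of 6.07 ± 0.66 in *vtc2* came to 1.22 with 30 added, and that of 2.16 ± 0.66 in WT to 0.56, no longer called. The WT call was also lost without WT ZE replicate 2, WT D7I replicate 1 or WT D7I replicate 2 (adjusted p up to 0.20). The PME gene measured, *PME61*, was called lower in WT at -1.12 ± 0.27, lost without WT ZE replicate 1 or WT D7I replicate 1 (adjusted p up to 0.0684), with 36.2 and 46.3 at D7I and 92.9 and 84.8 in zygotic embryos.

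Markers of other tissues moved with the same step. *BAN*, an anthocyanidin reductase gene of the seed coat, gave at most 3.16 on the D7I arrays, against 108 to 532 in zygotic embryos, and the summed signal of the 2 of 11 seed coat markers measured was 5.69 to 7.97 at D7I, against 120 to 567 in zygotic embryos. *LBD16*, a marker of callus and lateral root founder cells, gave 1980 and 2619 in *vtc2* and 4265 and 4168 in WT at D7I, and zygotic embryos gave 136 and 171 in *vtc2* and 230 and 150 in WT, while *LBD29*, the other of 2 measured among 7 callus markers, stayed below 30 on every array. *M17*, the 1 of 15 seed maturation markers measured, gave 1351 and 2771 in *vtc2* and 3950 and 3025 in WT at D7I, and zygotic embryos gave 0.258 and 6.28 in *vtc2* and 0.491 and 1.27 in WT. The meristem marker *CLV3* (1 of 7 measured) gave 2.97 to 25.7 at D7I, against 39.8 to 115 in zygotic embryos. Their part in the changes of the cell wall genes was not tested. In RNA from whole explants, fewer cells of a type and less RNA per cell cannot be told apart.

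**Figure D3:**
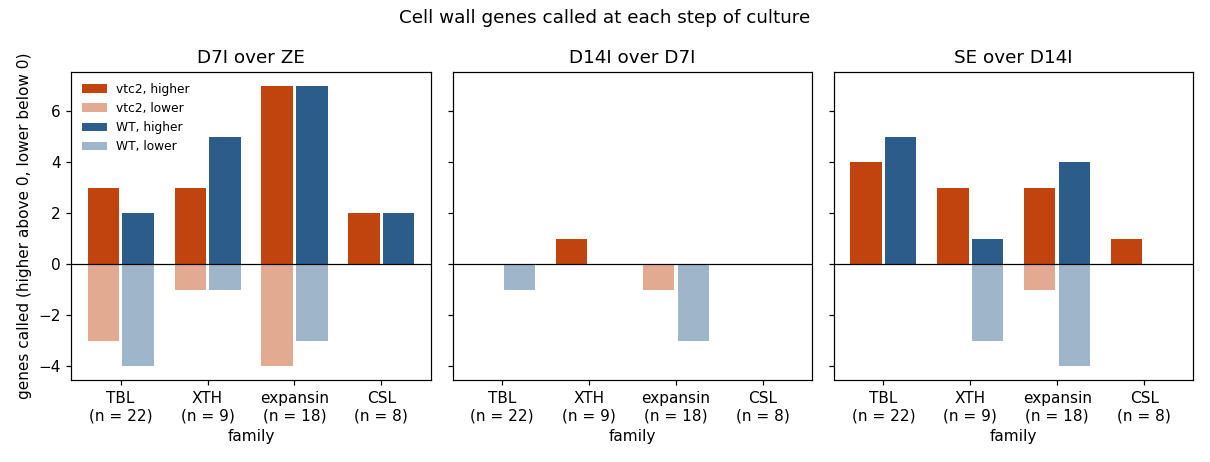
Number of genes of each family called higher (bars above 0) or lower (bars below 0) at each step between successive stages, for *vtc2* (orange) and WT (blue), with the number measured under each family; *PME61* (called lower at D7I in WT) and *GAUT15* (not called) are left out. Most calls fell in the first step and fewest in the second.

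The second week on 2,4-D medium brought few calls. Between D7I and D14I 1 gene was higher and 1 lower in *vtc2*, against 1.51% and 2.39% of all probe sets, and 0 were higher and 4 lower in WT, against 4.15% and 3.79%. At an unadjusted p under 0.05 limma had 9 of the 59 in *vtc2*, against 20.6% of all probe sets, and 13 in WT, against 26.6%. The median log2 difference of the 59 was -0.15 in *vtc2* and -0.34 in WT. With median centring of the arrays, quantile normalization or 30 added to every signal, it came to -0.005, -0.15 and -0.05 in *vtc2*. In WT it came to -0.30, -0.33 and -0.11. *XTH18* gave 566 and 601 at D14I and 133 and 59.7 at D7I in *vtc2* (2.71 ± 0.58, adjusted p = 0.0329), and 335 and 319 at D14I and 229 and 230 at D7I in WT, which was not called. *EXPA8* fell in *vtc2* by 1.61 ± 0.39 (adjusted p = 0.0478), with 648 and 490 at D14I against 1653 and 1779 at D7I. In WT *EXPA15* fell by 1.35 ± 0.28 (adjusted p = 0.0159), *EXPB3* by 1.37 ± 0.34 (adjusted p = 0.0304), *TBL38* by 2.11 ± 0.52 (adjusted p = 0.0315) and *EXPB1* by 2.18 ± 0.60 (adjusted p = 0.0457), so that these 4 genes, lower at D7I than in zygotic embryos, were lower again at D14I. *TBL38* gave 48.4 and 52.6 at D14I and 259 and 182 at D7I in WT. None of these calls held with every array left out in turn. That of *XTH18* was lost with 8 of the 16 arrays (adjusted p up to 0.22), *EXPA8* with 10 (0.233), *EXPB1* with 13 (0.258), *EXPA15* without WT D7I replicate 1 or WT D14I replicate 2 (0.115), and *EXPB3* and *TBL38* without any 1 of the 4 arrays compared (0.163 and 0.161).

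Mature somatic embryos, formed after the 2,4-D was withdrawn, were then compared with D14I explants. In *vtc2* 11 genes were higher and 1 lower in mature somatic embryos, against 11.3% and 11.2% of all probe sets. This split was 13 and 7 by the adjusted p alone, with no limit on the fold, and 4 and 2 without *vtc2* D14I replicate 1 or without *vtc2* SE replicate 1. In WT 10 were higher and 7 lower, against 9.96% and 4.76%. The median log2 difference of the 59 was 0.01 in *vtc2* and 0.42 in WT. With median centring of the arrays, quantile normalization or 30 added to every signal, it came to -0.05, -0.08 and 0.01 in *vtc2*. In WT it came to 0.14, 0.25 and 0.20. Both genotypes shared 7 of the rises (7 of 11 in *vtc2* and 7 of 10 in WT) and 1 fall, that of *EXPA9*. The overlap over all probe sets was not counted at this step, so it is not read as a trait of these genes.

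Some of the genes that fell on 2,4-D medium were called higher again in mature somatic embryos, 5 of 8 in *vtc2* and 6 of 9 in WT, against 39.1% and 34.9% of all probe sets that fell at D7I. *EXPB2*, *PME61* and *TBL45* fell at D7I in 1 genotype and were not called higher at this step. Of the 7 genes lower at D7I than in zygotic embryos in both genotypes, 4 (*EXPB1*, *EXPB3*, *TBL28* and *TBL38*) were called higher in mature somatic embryos than at D14I in both, against 34.6% of all such probe sets, and each of the 7 in at least 1 genotype, against 52.9%. *TBL38* gave 984 and 865 in mature somatic embryos and 83.7 and 92.2 at D14I in *vtc2*, and 315 and 1026 in mature somatic embryos and 48.4 and 52.6 at D14I in WT, a rise of 3.39 ± 0.52 (adjusted p = 0.00128) and 3.49 ± 0.52 (adjusted p = 0.00146). *TBL28* gave 305 and 278, against 41.1 and 55.9 at D14I, in *vtc2*, and 289 and 344, against 40.0 and 27.1, in WT (2.60 ± 0.31 and 3.26 ± 0.31). Its neighbour on the chromosome, *TBL30*, another xylan O-acetyltransferase gene with no protein-coding gene between them in the RefSeq table, rose by 2.39 ± 0.78 in *vtc2* and 2.77 ± 0.78 in WT. The pair correlated at 0.726 over the log2 signals of the 16 arrays, which share stage and genotype. The other neighbouring pairs gave lower values, 0.592 for *XTH18* and *XTH19*, 0.182 for *TBL21* and *TBL19*, and 0.153 for *EXLA3* and *EXLA1*. *EXPB3* gave 844 and 716 in mature somatic embryos and 163 and 181 at D14I in *vtc2*, and 1816 and 947 in mature somatic embryos and 94.0 and 114 at D14I in WT (2.18 ± 0.34 and 3.66 ± 0.34). *EXPB1* rose only in part, to 191 and 161 in *vtc2*, against 43.7 and 35.6 at D14I, and to 70.6 and 145 in WT, against 51.7 and 13.1, all far under its zygotic signals. Markers moved at this step too. *LBD16* gave 181 to 389 in mature somatic embryos, against 1340 to 1986 at D14I, *M17* 9.17 to 42.6, against 718 to 1865, and *BBM*, an embryo identity gene, 107 to 235, against 445 to 855. *BAN* gave 1.12 to 3.11 in mature somatic embryos, against 1.83 to 15.4 at D14I. Their part in the changes of the cell wall genes was not tested.

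*EXLB1* had its highest signals in mature somatic embryos, with 1895 and 1431, against 265 and 474 at D14I, in *vtc2*, and 1597 and 1562, against 95.4 and 105, in WT. The difference was 2.22 ± 0.52 (adjusted p = 0.00985) in *vtc2* and 3.98 ± 0.52 (adjusted p = 0.000691) in WT, and on no array of zygotic embryos did *EXLB1* exceed 29.3. *XTH20* reached 908 and 865 in mature somatic embryos, against 306 and 403 at D14I, in *vtc2* and 590 and 963, against 258 and 200, in WT (1.34 ± 0.36 and 1.73 ± 0.36). In WT it was the one gene called higher both at D7I over zygotic embryos and in mature somatic embryos over D14I, and in *vtc2* 4 genes were, *XTH20*, *CSLA03*, *EXLB1* and *XTH33*. The share of all probe sets called so was not counted. The *vtc2* calls of these 4 in mature somatic embryos depended on single arrays, and none was called in a step difference between genotypes. No genotype contrast is read from these counts.

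*EXPA9* fell to 157 and 192, against 1468 and 1627 at D14I, in *vtc2*, and to 248 and 280, against 1692 and 1842, in WT, by 3.16 ± 0.23 (adjusted p = 2.03e-05) and 2.74 ± 0.23 (adjusted p = 5.32e-05). *EXLA1*, *EXLA2*, *EXPA8*, *XTH16*, *XTH18* and *XTH19*, all called higher at D7I than in zygotic embryos of WT, were called lower in WT mature somatic embryos than at D14I. *EXLA1* gave 498 and 617 in mature somatic embryos and 3202 and 3794 at D14I in WT (-2.65 ± 0.22, adjusted p = 5.11e-05), and *XTH16* gave 101 and 109, against 747 and 825 (-2.90 ± 0.31, adjusted p = 0.000239). None of the 6 was called lower in *vtc2*, where *EXLA1* gave 1381 and 1359 in mature somatic embryos and 2083 and 2195 at D14I.

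At this step 8 of the 12 calls in *vtc2* and 6 of the 17 in WT depended on single arrays, and the *vtc2* count was 6 without *vtc2* D14I replicate 1 or without *vtc2* SE replicate 1. In *vtc2* those of *EXLB1* and *TBL19* were lost without either of these (adjusted p up to 0.0769 and 0.118), *XTH20* also without *vtc2* SE replicate 2 (0.111), *EXPB1* without any 1 of the 4 arrays compared (0.101), *TBL30* with 6 of the 16 arrays (0.143), *CSLA03* with 7 (0.23), *XTH32* with 8 (0.19) and *XTH33* with 12 (0.192). In WT *XTH20* was lost without WT D14I replicate 2 (0.0628), *TBL25* without WT D14I replicate 1 (0.0581), *EXLA2* without WT D14I replicate 1 or 2 or WT SE replicate 2 (0.0879), *XTH18* without WT D14I replicate 1 or 2 or WT SE replicate 1 (0.0793), *TBL30* without WT D14I replicate 2 or WT SE replicate 1 or 2 (0.213) and *EXPB1* with 14 of the 16 (0.301). With median centring of the arrays the WT step held 7 rises and 10 falls, and with quantile normalization 7 and 8, so the balance of directions in WT turned with the scaling.

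**Figure D4:**
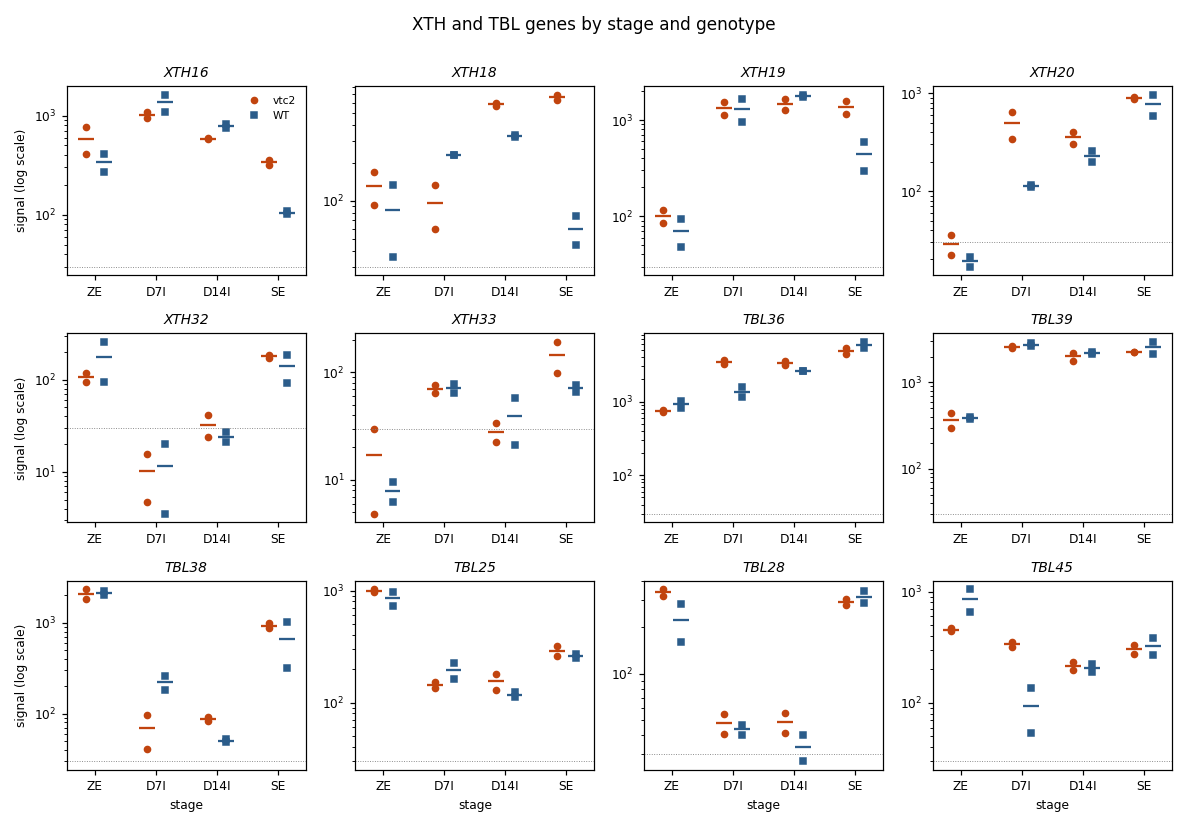
Signals of 6 XTH and 6 TBL genes on each array (points) with the mean of the 2 arrays of a group (bars), by stage, for *vtc2* (orange circles) and WT (blue squares) on a log scale that differs between panels; the dotted line is a signal of 30. ZE, zygotic embryos; SE, mature somatic embryos. *XTH16*, *XTH18* and *XTH19* were higher in *vtc2* than in WT mature somatic embryos, and *TBL38*, *TBL25* and *TBL28* were lowest on 2,4-D medium.

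The study was built to compare ascorbate-deficient with WT tissue, and 8 of the 59 genes were called between genotypes in at least 1 stage. The share of all probe sets called over the stages together was not counted, so the calls are set against all probe sets stage by stage. Fits of the compared groups alone, with 2 residual degrees of freedom, called 0 at D7I and 0 in mature somatic embryos. In zygotic embryos 0 genes were called higher and 0 lower in *vtc2*, against 0.00879% and 0.0264% of all probe sets, with 9 of the 59 at an unadjusted p under 0.05 by limma, against 6.85% of all probe sets. At D14I 0 were called in either direction, against 0.0176% and 0.0044%, with 3 of the 59 at an unadjusted p under 0.05, against 4.5%. The calls lay at D7I, with 3 higher and 1 lower in *vtc2* against 1.98% and 0.717% of all probe sets, and in mature somatic embryos, with 4 higher and 1 lower against 1.69% and 2.15%.

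At D7I *TBL36* gave 3671 and 3227 in *vtc2*, against 1567 and 1165 in WT (1.35 ± 0.20, adjusted p = 0.0130). In WT *TBL36* reached 2584 and 2575 at D14I and 6399 and 5322 in mature somatic embryos, and in *vtc2* 3570 and 3135 at D14I and 4456 and 5352 in mature somatic embryos, against 771 and 731 in zygotic embryos of *vtc2* and 1010 and 815 in those of WT. *XTH20* gave 642 and 339 in *vtc2*, against 115 and 111 in WT, at D7I (2.04 ± 0.36, adjusted p = 0.0231). *TBL45* gave 317 and 353 in *vtc2*, against 135 and 53.3 in WT (1.98 ± 0.39, adjusted p = 0.0337), and the WT mean was the lowest of the 4 WT stages. *EXLA1* was lower in *vtc2*, with 1907 and 2101, against 5934 and 3812 in WT (-1.25 ± 0.22, adjusted p = 0.0233). The arrays of the 2 genotypes did not overlap for any of the 4 genes, which adds no support, since the genes were called on these same arrays.

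In mature somatic embryos 3 XTH genes were higher in *vtc2*. *XTH18* gave 634 and 695 in *vtc2*, against 44.6 and 75.4 in WT, and had the largest genotype difference of the 59 that was called, 3.52 ± 0.58 (adjusted p = 0.0171). *XTH19*, its neighbour on the chromosome with no protein-coding gene between them in the RefSeq table, gave 1569 and 1163 in *vtc2*, against 595 and 298 in WT (1.68 ± 0.43, adjusted p = 0.0473). *XTH16* gave 357 and 320 in *vtc2*, against 101 and 109 in WT (1.69 ± 0.31, adjusted p = 0.0217). *EXLA1* was higher in *vtc2* at this stage, with 1381 and 1359, against 498 and 617 in WT (1.31 ± 0.22, adjusted p = 0.0176), the opposite of its direction at D7I. *ATCSLC08*, of the xyloglucan backbone subfamily, was lower, with 173 and 172 in *vtc2*, against 332 and 368 in WT (-1.02 ± 0.23, adjusted p = 0.0350). The arrays of the 2 genotypes did not overlap for any of the 5 genes, which adds no support, since the genes were called on these same arrays. A call needed a 2-fold difference, so each exceeded the median shift of -0.15 by rule. The difference of *ATCSLC08* lay in the direction of that shift. Its call was lost with median centring of the arrays and with quantile normalization.

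**Figure D5:**
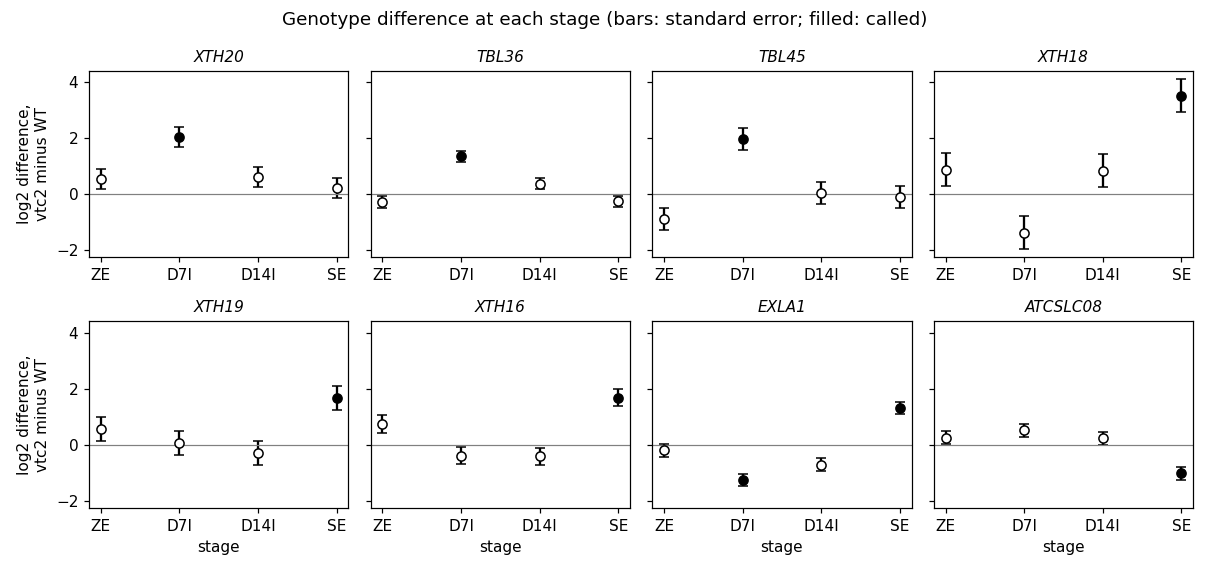
Difference between *vtc2* and WT at each stage for the 8 genes called in a genotype comparison, as log2 *vtc2* minus log2 WT (points) with the standard error of the fit over all 16 arrays (bars, 2 arrays per group); filled points were called. ZE, zygotic embryos; SE, mature somatic embryos. *EXLA1* was below 0 at D7I and above 0 in mature somatic embryos, and *XTH18* had the highest point, 3.52, in mature somatic embryos.

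With 2 arrays per group these calls were near the limit of the test, and each was lost when some single array was left out. *XTH20* was lost without WT D7I replicate 1, WT D7I replicate 2 or *vtc2* D7I replicate 1 (adjusted p up to 0.121), *TBL36* without WT D7I replicate 2 or either *vtc2* D7I replicate (0.0848), *EXLA1* at D7I without WT D7I replicate 1 or either *vtc2* D7I replicate (0.124), and *TBL45* with 9 of the 16 arrays left out in turn (0.158). In mature somatic embryos *EXLA1*, *XTH16* and *XTH18* were lost without WT SE replicate 1 or either *vtc2* SE replicate (0.0955, 0.118 and 0.0898), *ATCSLC08* with 8 arrays (0.145) and *XTH19* with 12 (0.205), and the 2 WT arrays were those that correlated least with each other. Their direction held under every alternative run, which adds little. Only quantile normalization and median centring could have turned it, since groups that do not overlap keep their order under the other alternatives.

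Other markers differed between the genotypes at the stages with calls. At D7I *LBD16* gave 1980 and 2619 in *vtc2*, against 4265 and 4168 in WT, and *M17* gave 1351 and 2771 in *vtc2*, against 3950 and 3025 in WT. *BBM*, the 1 of 10 embryo identity markers measured, gave 107 and 129 in *vtc2* mature somatic embryos, against 229 and 235 in WT. At D7I *BBM* ran the other way, with 530 and 464 in *vtc2*, against 247 and 376 in WT. The endosperm markers *AGL62* and *IKU2* (2 of 8) summed to at most 72.7, and none of 7 xylem and 9 root hair markers was measured. Their part in the genotype differences was not tested.

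Whether a step itself differed between genotypes was tested as the *vtc2* step minus the WT step. Between zygotic embryos and D7I 1 gene was called, *TBL36*, against 0.369% of probe sets with a higher *vtc2* step and 0.0923% with a lower one. Its rise in *vtc2* (2.20 ± 0.20) exceeded that in WT by 1.62 ± 0.28 at an adjusted p of 0.0499, and this was lost in 18 of 27 alternatives, 14 of which left out 1 array (adjusted p up to 0.161). For the steps between D7I and D14I and between D14I and mature somatic embryos 0 genes were called, against 0.0132% and 0.0%, and 0.0791% and 0.022%, of all probe sets. At an unadjusted p under 0.05, limma had 11 and 13 of the 59, against 11.2% and 17.2% of all probe sets. The closest were *EXLA1* (2.01 ± 0.31, adjusted p = 0.0536) and *XTH16* (2.10 ± 0.44, adjusted p = 0.0810) for the last step. The falls of *EXLA2*, *EXPA8*, *XTH18* and *XTH19* called in WT alone are therefore not shown to differ from the *vtc2* step, nor are the other steps called in 1 genotype, except that of *TBL36*.

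Beside the families, a list of 163 further cell wall genes was kept, of which the annotation used here pairs 8 with a probe set (*GUT2*, *IRX15*, *IRX15-L*, *COB*, *ADPG1*, *HCT*, *FER* and *THE1*). At D7I 0 were higher and 1 lower in *vtc2*, against 18.0% and 12.1% of all probe sets, and 0 higher and 2 lower in WT, against 15.7% and 12.0%. *HCT*, a lignin pathway acyltransferase gene, gave 1474 and 1299 at D7I and 4631 and 4843 in zygotic embryos of *vtc2*, and 2207 and 2063 at D7I and 4783 and 5021 in zygotic embryos of WT (-1.77 and -1.20, both called). *IRX15-L*, a xylan synthesis gene, rose in mature somatic embryos in both genotypes, to 84.3 and 98.6, against 17.9 and 9.0 at D14I, in *vtc2* and to 207 and 126, against 22.8 and 31.1, in WT. *ADPG1*, a polygalacturonase gene, was the only 1 of the 8 called between genotypes, higher in *vtc2* mature somatic embryos, but with 24.0 and 26.9 in *vtc2* against 0.678 and 0.471 in WT, below a signal of 30 throughout. At D14I 0 were called in *vtc2* (1.51% higher and 2.39% lower over all probe sets) and 1 was higher in WT (4.15%). In mature somatic embryos 1 was higher in *vtc2* (11.3%), and 2 were higher and 1 lower in WT (9.96% and 4.76%).

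3 further pectin methylesterase genes carry symbols of another form and fell outside the rule. *ATPMEPCRD* gave 23.8 and 22.5 at D7I and 3281 and 2886 in zygotic embryos of *vtc2*, and 23.6 and 20.5 at D7I and 3654 and 6847 in zygotic embryos of WT (-7.05 and -7.83, both called). *ATPMEPCRB* ran the other way, with 404 and 322 at D7I and 26.2 and 3.5 in zygotic embryos of *vtc2*, and 416 and 527 at D7I and 4.05 and 9.49 in zygotic embryos of WT. *PMEPCRF* was highest in mature somatic embryos, with 733 and 598, against 62.3 and 61.2 at D14I, in *vtc2* and 898 and 331, against 59.5 and 73.4, in WT.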

How the data were processed

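The deposited table holds intensity values on a linear scale, 1 per probe set and array, for 16 arrays in 8 groups of 2. In the values the authors deposited, the 2% trimmed mean was 500 on all arrays. The submitters' processing notes name GCOS. The methods describe RMA values, which this table does not hold, and detection calls were not used here.

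Log2 intensities without an offset were fitted with limma 3.58.1 in R 4.3.3, with 1 mean per group over all 16 arrays (8 residual degrees of freedom, 1.62 prior). The 22810 probe sets included 64 controls, which were left out, and p-values were adjusted by Benjamini-Hochberg over the other 22746. The script was tested on simulated data. The labels call the replicates biological but do not say whether cultures were separate, so p-values measure the spread between these arrays, which may be technical in part. The number of arrays limits the precision.

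Genes were assigned from the platform annotation. Of the probe sets tested, 13513 (59.4%) had 1 gene, 503 several and 8730 none, and 13436 were matched to the RefSeq table (TAIR10.1), used for names and neighbours. The arrays name no genome build, so no coordinates are given. No sequences were used. *TBL32* has a probe set shared by related transcripts by its suffix, and cross-hybridization within families was not examined.

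Replicate numbers showed no clear pairing of arrays: over 28 pairs of groups the deviations of replicate 1 correlated at -0.137 to 0.165 (median -0.0216, 3 above 0.1), and no replicate block was used in the fit. A batch shared by some of the groups is not excluded by this.

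The genes and lists were chosen with earlier results of these data known. Genes were named by rule: the largest called rise and fall per family and comparison, all called between genotypes or in a step difference, and the brightest per family. Other genes named were chosen after their values were seen. Alternatives were an offset of 30, quantile normalization, median centring, a mean signal of at least 30, only the compared groups, array weights, a trended prior, a replicate block, the p threshold alone, the platform's own symbols, a moderated F test over all groups (in place of the multiclass SAM of the methods), and leaving out each array in turn. The p threshold alone and the platform's own symbols, which gave the same 59 genes, could not lose a call.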

Additional observations from a re-analysis of the deposited data

Results flagged for a closer look

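The rise of *TBL36* between zygotic embryos and D7I was larger in *vtc2* than in WT, by 1.62 ± 0.28 on the log2 scale (interaction contrast in limma, adjusted p = 0.0499), which is a difference between groups under the same contrast. The 2 *vtc2* arrays gave 3671 and 3227 at D7I and 771 and 731 in zygotic embryos, and the 2 WT arrays gave 1567 and 1165 at D7I and 1010 and 815 in zygotic embryos. Over 27 alternatives the adjusted p ran up to 0.201, and 18 of them lost the call.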

How the results depend on the processing

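Of the 93 pairs of a gene and a comparison that were called, 44 kept their call under every alternative, 53 with each array left out in turn, 86 with an offset of 30 and 83 with the replicate number as a block, and 0 changed direction. Several of the alternatives leave the log2 difference itself unchanged, so they could not turn a direction. Counts of called genes that moved by over 1.5 times are given with the main count first. The moderated F asks only whether any of the 8 groups differ. Its counts add the 2-fold limit to genes that may differ by stage alone, and so do not test the comparison named. For *vtc2* D14I over D7I (2 called) an offset of 30, a mean signal of at least 30 and a trended prior gave 4 each, array weights 5, the replicate block 1, the fit of the compared groups 0 and the moderated F 7. For WT D14I over D7I (4) the fit of the compared groups gave 0 and the moderated F 9. For *vtc2* mature somatic embryos over D14I (12) the adjusted p alone gave 20, and for the same step in WT (17) the fit of the compared groups gave 7. Between *vtc2* and WT, the moderated F gave 5 in zygotic embryos (0), 10 at D7I (4) and 2 at D14I (0); the fit of the compared groups gave 0 at D7I and 0 in mature somatic embryos (5), where array weights gave 0 and the replicate block 3. For the genotype difference of the step from zygotic embryos to D7I (1), an offset of 30, the signal filter and the trended prior gave 2, median centring, the compared groups and the replicate block 0 and the moderated F 14. That of D7I to D14I (0) gave 9 with the moderated F, and that of D14I to mature somatic embryos (0) gave 3 with the offset, 2 with the filter and the trended prior, 1 with median centring, 1 with quantile normalization, and 14 with the moderated F. Leaving out each array in turn gave 20 to 24 for *vtc2* D7I over zygotic embryos, 0 to 4 for *vtc2* D14I over D7I, 6 to 13 for *vtc2* mature somatic embryos over D14I, 23 to 26, 0 to 4 and 13 to 17 for the same steps in WT, 0 to 1, 0 to 5, 0 to 0 and 0 to 5 for *vtc2* over WT at the 4 stages in their order, and 0 to 2, 0 to 0 and 0 to 2 for the 3 step differences. Scaling moved the split of higher and lower calls for *vtc2* mature somatic embryos over D14I (11 and 3 with median centring), *vtc2* D14I over D7I (2 and 0 with median centring, 2 and 1 with quantile normalization), WT D14I over D7I (1 and 3 with quantile normalization), *vtc2* over WT at D7I (3 and 2 with median centring) and in mature somatic embryos (4 and 0 with either), and the first step difference (0 and 1 with quantile normalization). Under median centring the median probe set moved by -0.27 for WT mature somatic embryos over D14I, and the cause of these changes was not tested. The fit of the compared groups has 2 residual degrees of freedom for each pair of groups. Signals under 30 limit the values of genes that are weak at 1 stage, such as *EXLA2*, *EXLA3* and *CSLA03*.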
